A study of Mus musculus with 12 samples.

Results

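The Prp19 complex was followed through 8 genes, Prpf19, Cdc5l, Plrg1, Bcas2, Crnkl1, Cwc15, Ctnnbl1 and Xab2, in CD8+ T cells before and after activation in mice. The genes were chosen by symbol from the known composition of the complex, with the gene counts of Prpf19 in these libraries already known. They are 8 of 55536 annotated genes, and all 8 are among the 18817 genes that passed the filter on low counts. RNA-seq was available for 12 libraries in 3 groups. The cells were OT-I CD8+ T cells, which carry a transgenic T cell receptor for a peptide of ovalbumin, on the C57BL/6J strain. In the Ag group (5 libraries), OT-I cells had been transferred into C57BL/6J mice that received the peptide antigen with control IgG. In the Ag+Costim group (5 libraries), the recipients received the antigen with agonist antibodies against CD134 (OX40) and CD137 (4-1BB), a pair of costimulatory receptors of the tumor necrosis factor receptor family. The Naive group (2 libraries) was OT-I cells from untreated donor mice that had not been transferred. Transferred cells were collected from spleen and lymph nodes, per the labels after 4 days in the recipients. They were sorted for CD8, a CD45 allele of the donor and both chains of the transgenic receptor. The labels give no day for the Naive libraries. All cells of all groups carry the same receptor transgene, so they stand for 1 T cell clone specificity and not for a mixed repertoire. The donor OT-I mice lacked Rag1 or Rag2 and so had no other T cells. The labels give no age or sex per library.

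The Prp19 complex joins the spliceosome when it is being activated and holds the U5 and U6 small nuclear RNAs in place on the pre-mRNA through catalysis. Prpf19 forms its tetrameric scaffold and is a U-box ubiquitin ligase, and in DNA damage signaling it also acts on RPA, the protein that coats single-stranded DNA. T cells that are activated grow and divide rapidly and raise the output of their RNA processing machinery.

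Prpf19 has an alternative splice acceptor that adds a short in-frame coding segment, shown here because it was the member region with the largest splicing difference between Ag and Ag+Costim. The gene (ENSMUSG00000024735.13) lies on the + strand of mm10 at chr19:10895231-10909559. In the GENCODE vM21 annotation the segment, at chr19:10898926-10898982, is coding exon sequence of Prpf19-203 and lies within an intron of Prpf19-201. The sequences below are spliced transcript sequence with the flanking coding bases, and the capitals mark the segment.
Prpf19-203: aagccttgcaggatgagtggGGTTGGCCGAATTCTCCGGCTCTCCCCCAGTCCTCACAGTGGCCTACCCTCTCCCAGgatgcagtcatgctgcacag
Prpf19-201: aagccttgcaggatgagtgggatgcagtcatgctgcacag
The segment is 57 bases, which are 19 codons, and it starts at base 247 of the coding sequence on the first position of a codon. It holds 0 in-frame stop codons and 64.9% G or C. The coding sequence is 1512 bases in Prpf19-201 and 1569 bases in Prpf19-203, and the segment is the whole coding difference between them. Of the 8 annotated Prpf19 transcripts, 1 holds the segment.

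The libraries held between 24006053 and 49294934 counts, so that 3 counts of a gene correspond to 0.0617 to 0.119 CPM, the count scaled to library size. The 6 CD8 T cell markers (Cd3d, Cd3e, Cd3g, Cd8a, Cd8b1 and Lck) had counts in every library and summed to 8153 to 11221 CPM in Ag, 7426 to 7904 CPM in Naive and 4763 to 6493 CPM in Ag+Costim, while Cd4 lay between 0 and 2.44 CPM. The 5 erythroid markers, led by hemoglobin genes, summed to 625 to 6373 CPM in Ag, 150 to 2068 CPM in Naive and 14.5 to 222 CPM in Ag+Costim. The 5 B cell markers summed to 108 to 155 CPM in Ag, 27.2 to 29.7 CPM in Naive and 22.5 to 57.7 CPM in Ag+Costim, and Pax5 was at 0 in both Naive libraries. The 5 myeloid markers summed to 45.04 to 163 CPM, 22.6 to 47.7 CPM and 96.7 to 254 CPM in the same order. The 6 proliferation markers summed to 552 to 971 CPM in Ag, 196 to 208 CPM in Naive and 2280 to 3093 CPM in Ag+Costim. These markers differ between the same groups as the genes below, and their part in the differences was not tested. In bulk libraries, fewer cells of a type and less RNA per cell cannot be told apart. The study's general statement is that its data points are biological replicates, while the labels do not say whether each library came from a separate mouse. The errors and p-values measure the spread between these libraries.

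Prpf19 was the member that separated the groups most. It held 15.1, 17.1, 17.3, 16.02 and 15.1 CPM in Ag libraries 1 to 5. It held 188, 235, 224, 160 and 205 CPM in Ag+Costim libraries 1 to 5, and 87.1 and 86.3 CPM in the Naive libraries. Every Ag library therefore lay below both Naive libraries, and every Ag+Costim library lay above them. The counts behind these values were 405 to 764 per library in Ag, 6897 to 10597 in Ag+Costim and 4110 to 4231 in Naive. The mean was 16.1 ± 1.05 CPM in Ag (SD, n = 5) and 203 ± 29.6 CPM with costimulation (SD, n = 5). The difference was 12.5-fold, or 3.65 ± 0.11 (SE) on the log2 scale. Against Naive, Ag was lower by a log2 fold change of -2.43 ± 0.12 (SE), a level 5.37-fold lower, and Ag+Costim was higher by 1.22 ± 0.14 (SE). Among the 18817 genes tested, the log2 difference of Prpf19 between Ag and Ag+Costim ranked 287 from the highest, and that from Naive to Ag ranked 880 from the lowest. These values chose the gene in part, so they are given without a test. Comparisons of Ag with Naive and of Ag+Costim with Ag share the 5 Ag libraries.

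**Figure D1:**
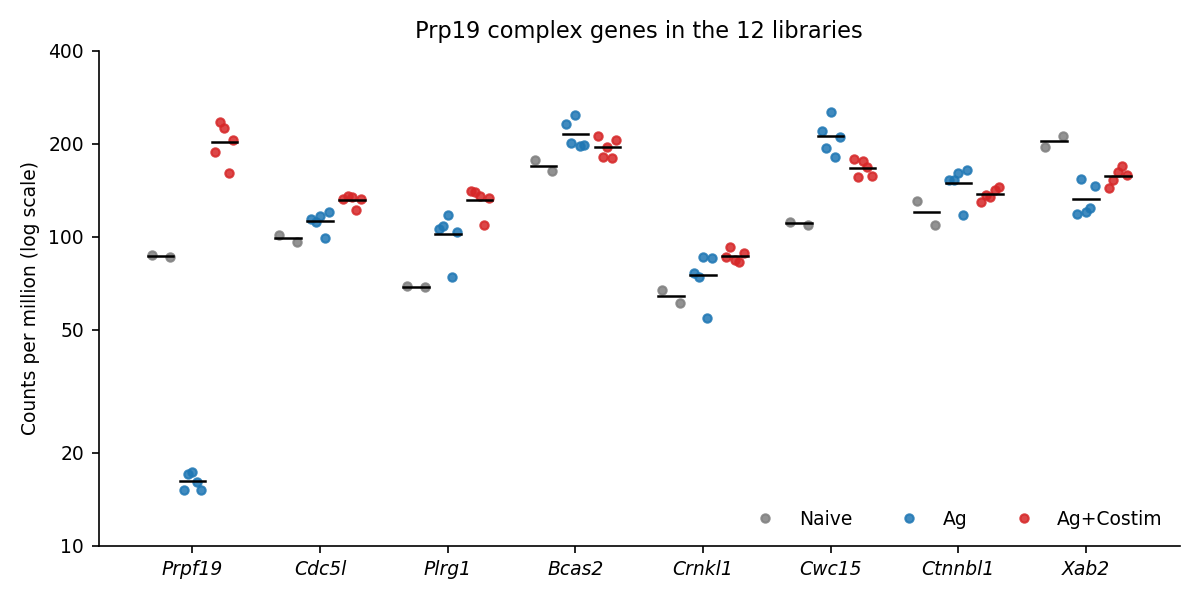
Levels of the 8 Prp19 complex genes in each library, in CPM on a log axis, with Naive, Ag and Ag+Costim libraries as points and the group means as bars. Prpf19 lies at 15.1 to 17.3 CPM in Ag, 86.3 to 87.1 CPM in Naive and 160 to 235 CPM in Ag+Costim. The other genes differ less between groups, by at most 1.92-fold (Cwc15 from Naive to Ag).

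The other 7 genes moved far less than Prpf19. Their log2 differences between Ag and Ag+Costim ran from -0.34 to 0.37 with a median of 0.20, beside a median of -0.05 over all genes tested. With Prpf19, edgeR's quasi-likelihood test at an adjusted p of 0.05 over all genes called 4 members higher with costimulation (Prpf19, Cdc5l, Plrg1 and Xab2) and 1 lower (Cwc15), beside 26.6% of all genes called higher and 26.5% called lower. The libraries of the groups did not overlap for 3 members (Prpf19, Cdc5l and Cwc15), beside 39.8% of all genes. From Naive to Ag, 3 members were called higher (Plrg1, Bcas2 and Cwc15) and 2 lower (Prpf19 and Xab2), beside 24.2% and 22.5% of all genes, and 5 did not overlap, beside 56.4%. From Naive to Ag+Costim, 5 were called higher and 1 lower (Xab2), beside 26.9% and 25.4%, and 7 did not overlap, beside 66.0%. These comparisons include the contrasts that were known when the genes were chosen, so nothing is read from the counts. The calls against Naive rest on 2 libraries. Without Naive library 1 or 2, 3 members were called between Naive and Ag, and without Ag library 4 all 8 were. Without Naive library 2, 3 were called between Naive and Ag+Costim. Under upper-quartile scaling, which shifts the median of all genes from Ag to Ag+Costim to -0.245, the split over all genes was 4056 higher and 6338 lower in place of 5006 and 4979. The members then went from 4 higher and 1 lower to 1 higher and 3 lower, since Cdc5l (0.03), Plrg1 (0.17) and Xab2 (0.05) were no longer called and Bcas2 (-0.34) and Ctnnbl1 (-0.32) were called lower.

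**Figure D2:**
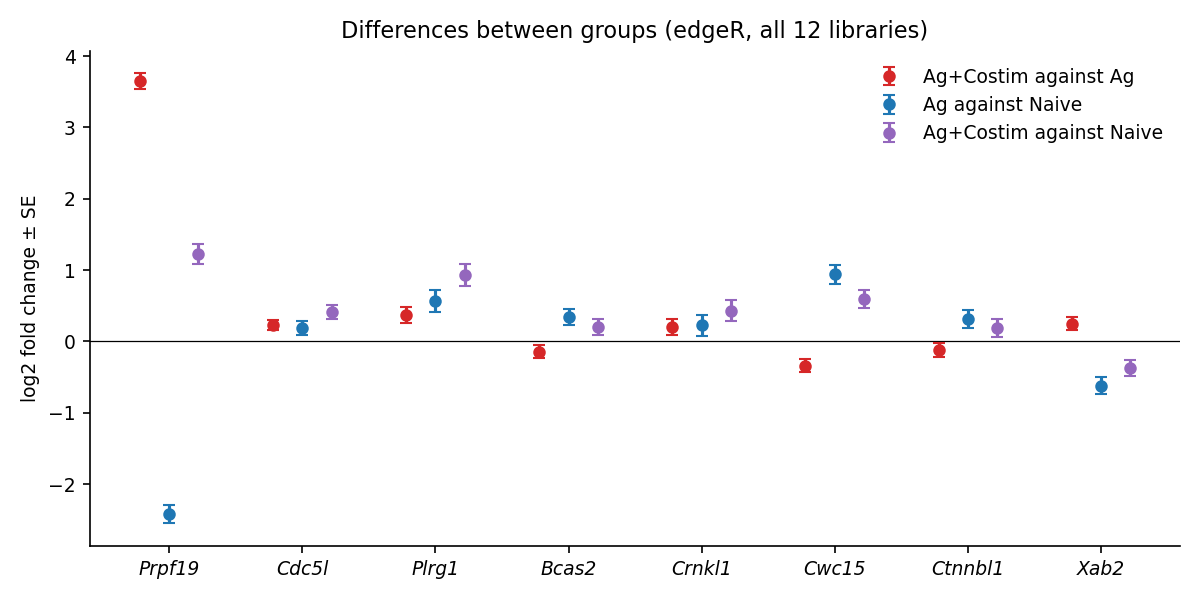
Log2 fold changes of the 8 genes between groups, with SE bars, for Ag+Costim against Ag, Ag against Naive and Ag+Costim against Naive. Prpf19 stands at 3.65, -2.43 and 1.22, and the other 7 genes lie between -0.62 and 0.94.

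Cdc5l, Plrg1 and Bcas2 form the core of the complex together with Prpf19. Cdc5l (ENSMUSG00000023932.9, chr17:45391884-45433737, - strand) has Myb-like DNA binding repeats and anchors the complex on the spliceosomal RNAs. It held 114, 112, 116, 99.0 and 120 CPM in Ag, 132, 135, 135, 122 and 133 CPM in Ag+Costim, and 101 and 96.4 CPM in Naive. Every Ag+Costim library lay above every Ag library, by a narrow margin at the library 4 of Ag+Costim, and the Ag and Naive libraries overlapped. The log2 fold change was 0.23 ± 0.07 (SE) from Ag to Ag+Costim and 0.18 ± 0.09 (SE) from Naive to Ag. The 5′ end of Cdc5l overlaps a non-coding gene on the other strand, B230354K17Rik, which held 1.62 to 4.67 CPM in Ag and 4.74 to 8.78 CPM in Ag+Costim. Since the library kit does not mark strand, reads in the overlap cannot be assigned to either gene.

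Plrg1 (ENSMUSG00000027998.11, chr3:83055522-83072355, + strand) encodes a WD40 repeat protein that binds Cdc5l. It held 106, 109, 118, 74.2 and 103 CPM in Ag and 140, 140, 135, 109 and 133 CPM in Ag+Costim, against 69.3 and 68.6 CPM in Naive. Both activated groups lay above Naive in every library, and Ag and Ag+Costim overlapped through Ag+Costim library 4. The log2 fold change was 0.37 ± 0.12 (SE) from Ag to Ag+Costim and 0.57 ± 0.16 (SE) from Naive to Ag, and the latter call was lost without Naive library 1 (0.57) or 2 (0.56). Bcas2 (ENSMUSG00000005687.14, chr3:103171655-103179166, + strand), the mammalian Spf27 subunit, held 232, 202, 248, 197 and 198 CPM in Ag and 212, 182, 195, 180 and 206 CPM in Ag+Costim, against 177 and 163 CPM in Naive. Its Ag and Ag+Costim libraries overlapped, with a log2 fold change of -0.14 ± 0.09 (SE), and both groups lay above Naive.

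Cwc15 and Ctnnbl1 are further partners of this core. Cwc15 (ENSMUSG00000004096.9, chr9:14500617-14510577, + strand) lies close to the catalytic center in the assembled spliceosome. It held 219, 194, 254, 182 and 210 CPM in Ag, 178, 156, 176, 169 and 158 CPM in Ag+Costim, and 111 and 109 CPM in Naive. It was highest in Ag in every library, with a log2 fold change of -0.34 ± 0.09 (SE) from Ag to Ag+Costim and 0.94 ± 0.13 (SE) from Naive to Ag. Prpf19 and Cwc15 were the 2 members whose Ag libraries lay outside both other groups, Prpf19 below and Cwc15 above, beside 18.4% of all genes with such a separation in either direction. Ctnnbl1 (ENSMUSG00000027649.15, chr2:157737401-157891614, + strand), an armadillo-repeat protein that binds Cdc5l and the antibody-diversifying deaminase AID, held 153, 152, 161, 117 and 164 CPM in Ag. It held 130, 136, 135, 142 and 145 CPM in Ag+Costim and 131 and 110 CPM in Naive. The groups overlapped, with a log2 fold change of -0.12 ± 0.09 (SE) from Ag to Ag+Costim and 0.31 ± 0.13 (SE) from Naive to Ag. Without Ag library 4, the lowest, the first was -0.20 and was called.

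Crnkl1 and Xab2 are the long arch-shaped proteins, built of helical repeats, that tie the complex to the rest of the spliceosome. Crnkl1 (ENSMUSG00000001767.5, chr2:145917479-145935014, - strand) held 76.2, 74.0, 86.3, 54.7 and 85.5 CPM in Ag, 85.9, 92.4, 83.9, 82.8 and 88.8 CPM in Ag+Costim, and 67.4 and 61.2 CPM in Naive. Its Ag and Ag+Costim libraries overlapped, with a log2 fold change of 0.20 ± 0.11 (SE), and every Ag+Costim library lay above Naive. Xab2 (ENSMUSG00000019470.12, chr8:3608421-3621316, - strand), which also acts in transcription-coupled DNA repair, held 118, 153, 120, 124 and 146 CPM in Ag and 144, 153, 162, 170 and 159 CPM in Ag+Costim. It held 195 and 212 CPM in Naive, above every library of both activated groups. The log2 fold change was 0.25 ± 0.09 (SE) from Ag to Ag+Costim, with overlapping libraries, and -0.62 ± 0.12 (SE) from Naive to Ag. The edgeR call of Xab2 from Ag to Ag+Costim was lost in 12 of 21 alternative settings, among them without Ag library 1, 3 or 4 or Ag+Costim library 3, 4 or 5 (log2 fold change 0.21 to 0.25). That of Cdc5l was lost in 4 (0.03 with upper-quartile scaling, 0.12 on FPKM and 0.08 with a trend on transcript length removed) and that of Cwc15 with the length trend removed (-0.04).

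Compared per transcript length, in FPKM summed over the transcripts of a gene, the makeup of the complex mRNAs differed between groups. In Ag, the order of mean levels was Cwc15 (218 FPKM), Bcas2 (138), Ctnnbl1 (60.2), Plrg1 (54.3), Xab2 (45.6), Cdc5l (38.9), Crnkl1 (22.0) and Prpf19 (7.20 ± 0.26, SD, n = 5). Of neighbors in this order, Ctnnbl1 and Plrg1, and Plrg1 and Xab2, had overlapping libraries, the other neighbors did not, and Prpf19 lay below every other gene in every library. In Ag+Costim, Prpf19 ranked 3 of 8, at 89.5 ± 12.6 FPKM (SD, n = 5), between Bcas2 at 120 and Plrg1 at 68.1 FPKM. Its lowest Ag+Costim library, at 71.3 FPKM, fell within the range of Plrg1, which reached 73.8 FPKM. In Naive, Prpf19 ranked 5 of 8 at 45.5 FPKM, between Ctnnbl1 at 54.4 and Plrg1 at 41.6 FPKM.

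Prpf19 made up 1.16% to 1.38% of the summed FPKM of the 8 genes in Ag, 8.53% to 8.85% in Naive and 12.2% to 16.9% in Ag+Costim. The 3 ranges do not overlap. The shares of other members also differed between groups. Those of Cwc15 and Bcas2 were highest in every Ag library, and those of Xab2 and Cdc5l in both Naive libraries. For Bcas2 the margin was narrow, at 21.7% or more in Ag against at most 21.64% in Naive and 21.02% in Ag+Costim. Cdc5l held 7.68% to 7.78% in Naive against at most 7.01% in Ag and 7.07% in Ag+Costim. Cwc15 averaged 37.3% in Ag, 24.6% in Naive and 26.3% in Ag+Costim, and Xab2 averaged 7.87%, 15.5% and 8.58% in that order. Relative to Cdc5l, its direct partner, the FPKM ratio of Prpf19 was 0.171 to 0.203 in Ag, 1.10 to 1.15 in Naive and 1.83 to 2.39 in Ag+Costim. A change of the scaling between libraries cancels in such a ratio. The gene counts carried a trend with transcript length between Ag and Ag+Costim, whose fitted value was -0.066 on the log2 scale at the length of Prpf19, beside its difference of 3.65. It was larger than the difference itself for Bcas2 (-0.24 against -0.14) and Crnkl1 (0.25 against 0.20). It was smaller, with the same sign, for Cwc15 (-0.30 against -0.34), Cdc5l (0.14 against 0.23), Xab2 (0.14 against 0.25) and Ctnnbl1 (-0.0099 against -0.12), and of the opposite sign for Plrg1 (-0.20 against 0.37). From Naive to Ag, the fitted trend opposed the difference for Crnkl1 (-0.32 against 0.23) and Cdc5l (-0.22 against 0.18). It also did so for Ctnnbl1 (-0.068 against 0.31). With the trend removed, Crnkl1 (0.55), Cdc5l (0.41) and Ctnnbl1 (0.38) were called there. Its sign was that of the difference, at a smaller size, for Cwc15 (0.32 against 0.94) and Bcas2 (0.17 against 0.34). The same held for Plrg1 (0.12 against 0.57), Xab2 (-0.22 against -0.62) and Prpf19 (-0.0058 against -2.43).

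**Figure D3:**
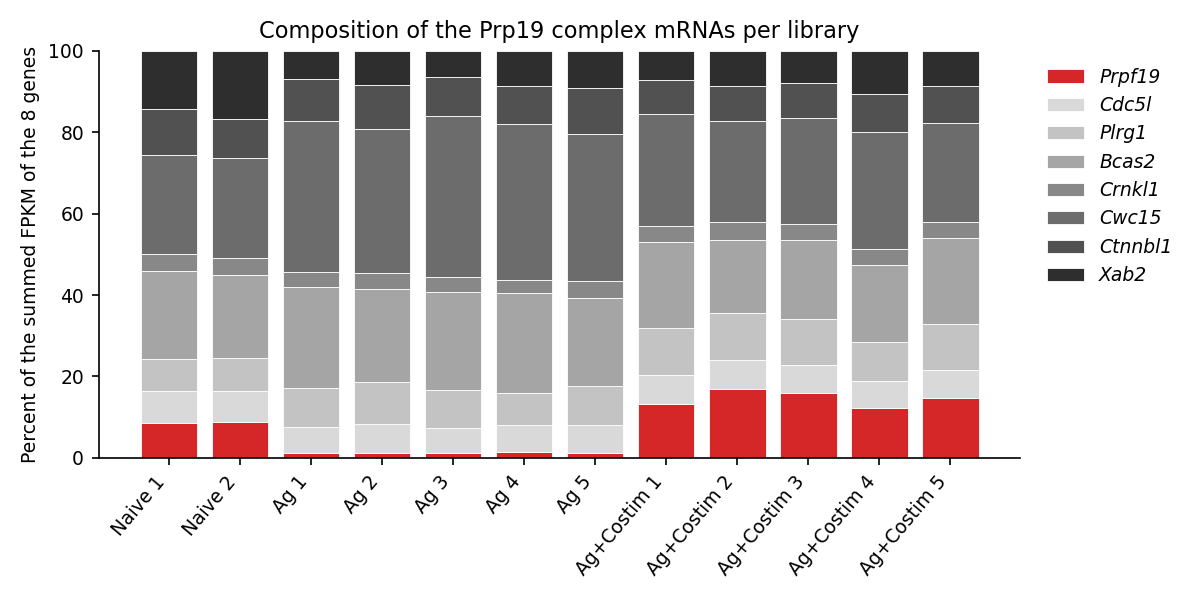
Share of each of the 8 genes in their summed FPKM, in percent, as stacked bars for each library. The Prpf19 segment, in red, covers 1.16% to 1.38% in Ag, 8.53% to 8.85% in Naive and 12.2% to 16.9% in Ag+Costim.

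The long form of Prpf19 made up a larger share of its transcript counts in some Ag libraries. These counts grow with transcript length, and the model of Prpf19-203 is 6035 bases against 2134 for Prpf19-201, mostly through sequence outside the coding segment. A share of counts, here and for the retained-intron models below, is therefore not a share of molecules. Prpf19-201, the form without the segment printed above, held 84.4% to 95.1% of the Prpf19 transcript counts in Ag, 96.0% to 97.2% in Ag+Costim and 96.4% to 96.6% in Naive. Prpf19-203, with the segment, held 3.62%, 14.3%, 7.66%, 8.15% and 3.34% in Ag libraries 1 to 5, from 21 to 109 counts per library. It held 2.13% to 3.66% in Ag+Costim and 1.73% to 2.10% in Naive. The Wilson 95% interval was 11.97% to 16.9% for Ag library 2 and 2.197% to 5.06% for Ag library 5, so the Ag libraries differed from each other by more than counting error, and Ag and Ag+Costim overlapped. Such intervals cover counting error only. In absolute level both forms were higher in Ag+Costim. Prpf19-203 held 0.505 to 2.44 CPM in Ag and 3.96 to 6.87 CPM in Ag+Costim, and Prpf19-201 held 14.2 to 15.7 CPM and 155 to 227 CPM.

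The Whippet table, which gives 1 Psi value per group for each exon node from pooled libraries, held 104 nodes of the 8 genes, 94 of them core exons. Psi is the fraction of transcripts that include a node. The node with the largest difference was the 57-base segment of Prpf19, with a Psi of 0.158 in Ag and 0.0876 in Ag+Costim. It was the 1 member node that differed by at least 0.05 in size, beside 19.1% of the 115403 nodes of the table, and 0 member nodes differed by at least 0.1, beside 7.39%. In both groups the Psi of this segment was above the count share of Prpf19-203 in every library. That share was 3.34% to 14.3% in Ag and 2.13% to 3.66% in Ag+Costim. The count share and the Psi thus gave different values for the segment, and which is closer to how often it was included was not tested. The pooled values allow no test and the reads per node are unknown. All 14 core exon nodes of Prpf19 were lower in Ag, with Psi of 0.969 to 0.982 (median 0.976) against 0.988 to 0.999 (median 0.999) in Ag+Costim. This direction was not particular to Prpf19. By smaller amounts, it held for 13 of 14 core exon nodes of Cdc5l, 13 of 13 of Plrg1 and 12 of 12 of Crnkl1. It also held for 13 of 14 of Ctnnbl1, 17 of 17 of Xab2, 4 of 5 of Bcas2 and 2 of 5 of Cwc15. The share of all core exon nodes with this direction was not computed, and exons of the same gene are not independent. Nothing is therefore read from these node counts. Prpf19 had 405 to 764 gene counts per library in Ag and 6897 to 10597 in Ag+Costim. The part of this depth in its Psi values was not tested. The upstream start node of Prpf19, at chr19:10895231-10895413, had a Psi of 0.0356 in Ag and 0.00212 in Ag+Costim, and its distal end node, at chr19:10905533-10909559, had 0.0156 and 0.00273.

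Exon inclusion of the other members was close between the groups. After Prpf19, the largest difference was that of the 51-base exon of Bcas2 at chr3:103175619-103175669, with a Psi of 0.973 in Ag and 0.952 in Ag+Costim. The largest difference in size was 0.0131 for Xab2, 0.00472 for Plrg1, 0.00444 for Cdc5l, 0.00258 for Crnkl1, 0.00065 for Ctnnbl1 and 3e-05 for Cwc15.

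Transcript models with a retained intron, which keep intron sequence and are annotated as not coding, made up 6.91% or more of the counts of Bcas2 and Xab2 in every library, and 2.46% or less of the other 6 genes. The splice sites of the intron that the main retained models of each gene keep are printed to show which intron it is. The capitals mark the GT and AG ends of the intron, with 10 exon bases on the outer side of each.
Bcas2 intron 5 donor: agaagttaagGTaagttggt
Bcas2 intron 5 acceptor: ttgtaaataactttttacAGgaaacatatt
Xab2 intron 10 donor: gctgctgcggGTaaggatgt
Xab2 intron 10 acceptor: ctgcctctgcctctccacAGaaagccacgg
Bcas2 intron 5 of 6 is 1669 bases, at chr3:103175670-103177338 on the + strand, and follows the 51-base exon named above. Xab2 intron 10 of 18 is 77 bases, at chr8:3613291-3613367 on the - strand. Both introns are retained in 2 models of their gene, Bcas2-203 and Bcas2-204, and Xab2-204 and Xab2-205. Bcas2-203 also keeps intron 4, and Xab2-204 also keeps introns 8 and 9. The retained shares below are summed over all such models, so they are not the retention of the printed intron alone.

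Retained-intron models held 28.2% and 29.8% of the Bcas2 transcript counts in Naive, above every activated library. They held 9.42%, 15.4%, 6.91%, 11.7% and 10.3% in Ag and 11.3%, 14.9%, 10.5%, 13.0% and 7.99% in Ag+Costim, which overlapped. In CPM the retained models were also lower after activation, at 48.6 and 49.9 CPM in Naive, 17.1 to 31.1 CPM in Ag and 16.5 to 27.1 CPM in Ag+Costim. The coding Bcas2-201 moved the other way, with 111 to 125 CPM in Naive, 168 to 228 CPM in Ag and 151 to 188 CPM in Ag+Costim. The rise of Bcas2 in the gene counts from Naive to Ag, a log2 fold change of 0.34 ± 0.12 (SE), is therefore the sum of these opposite differences. Its call was lost without Naive library 1 or 2 or Ag library 1 (0.28 to 0.40), with only these 2 groups fitted (0.34) and with the length trend removed (0.17). Short reads split between overlapping models by StringTie are estimates, and their error is not given in the table.

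The retained share of Xab2 varied widely within the activated groups. Its retained-intron models held 24.2%, 57.3%, 20.1%, 21.6% and 20.2% in Ag, 41.3%, 8.13%, 40.4%, 14.9% and 17.3% in Ag+Costim, and 27.3% and 28.2% in Naive. Ag library 2 and Ag+Costim libraries 1 and 3 stood high, through Xab2-205, whose model runs on to the 3′ end of the gene at position 3608421. That end overlaps Camsap3 on the other strand, which had 14 counts in Ag+Costim library 2 and 0 in the other 11 libraries. Retained models of Prpf19 were rare, at 1.31% to 2.46% in Ag, 1.28% to 1.83% in Naive and 0.248% to 0.580% in Ag+Costim. Ag+Costim lay below both other groups in this share, while in CPM it lay above Ag, at 0.557 to 1.17 CPM against 0.224 to 0.373 CPM. No retained Prpf19 model had more than 8 counts in an Ag library. Prpf19-204 and Prpf19-208 had 1 count each in every Ag library, which was 0.131% to 0.247% of the gene there. The retained share of Plrg1 was also lowest in Ag+Costim, at 0.222% to 0.370% against 0.475% to 0.642% in Ag and 0.765% to 0.921% in Naive.

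**Figure D4:**
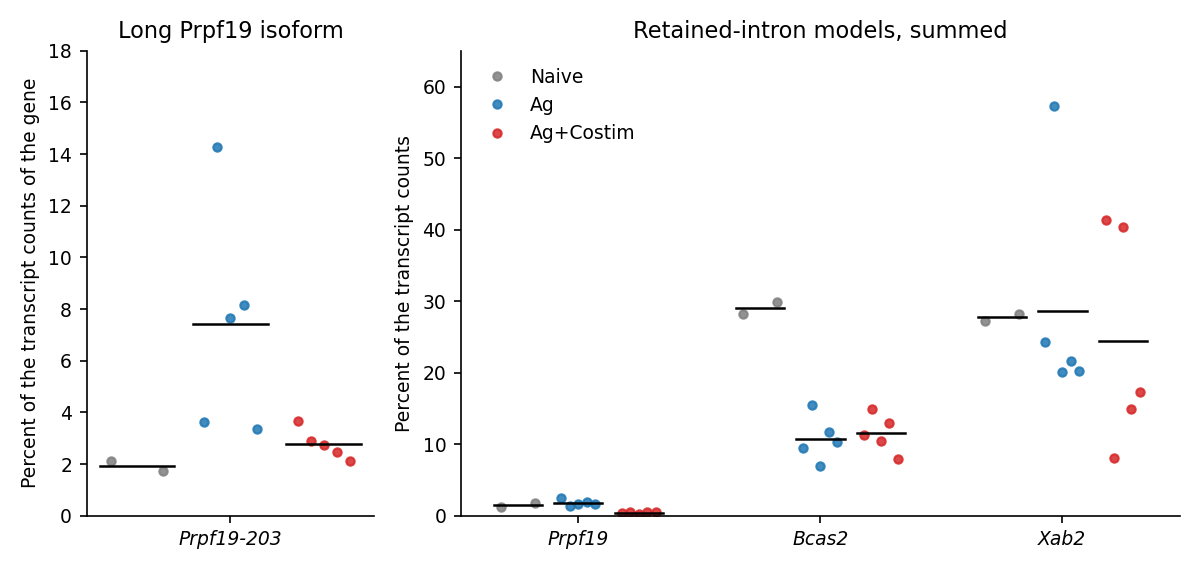
Share of the long form Prpf19-203 (left) and of all retained-intron models of Prpf19, Bcas2 and Xab2 (right) in the transcript counts of their gene, in percent, with libraries as points and group means as bars. Bcas2 lies at 28.2% and 29.8% in Naive and at 6.91% to 15.4% in the activated groups, and Ag library 2 stands apart at 14.3% for Prpf19-203 and 57.3% for Xab2.

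Within-gene transcript usage between Ag and Ag+Costim was compared with edgeR over 34737 transcripts of 8717 genes. It called 0 of 25 tested transcripts of 7 members at an adjusted p of 0.05, beside 2.56% of all transcripts. At an unadjusted edgeR p under 0.05, 2 member transcripts passed, Prpf19-206 and Plrg1-201, beside 3117 of all 34737. On the same transcripts limma called 6 of the members, namely 2 each of Prpf19, Cdc5l and Cwc15, beside 2787 of all 34737. The shares of Cwc15 were spread over 3 coding models. Cwc15-201 held 45.9% to 63.8% in Ag, 61.1% to 62.1% in Naive and 56.0% to 77.2% in Ag+Costim, and Cwc15-203 held 5.27% to 9.94%, 12.04% to 12.7% and 2.11% to 3.54% in the same order. Cwc15-203 thus had 3 ranges that did not overlap. Plrg1-201 was seen in Ag+Costim library 4 alone, at 17.7% (828 of 4687 counts, Wilson 95% interval 16.6% to 18.8%), with 0 counts in the other 11 libraries, where 3 counts would be 0.0476% to 0.160%. A single transcript held 97.7% or more of Cdc5l, 98.6% or more of Crnkl1 and 99.6% or more of Ctnnbl1 in every library.

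Proteins that work beside the complex in the spliceosome, or with its members in DNA repair, were taken from 5 lists drawn up by function. Of 12 Prp19-related proteins, edgeR called 5 higher and 6 lower with costimulation, beside 26.6% and 26.5% of all genes, with a median log2 difference of -0.22 between Ag and Ag+Costim. Aqr, the helicase that binds introns next to Xab2, averaged 48.1 ± 4.72 CPM in Ag (SD, n = 5) and 130 ± 20.5 CPM with costimulation (SD, n = 5). It rose by 1.44 ± 0.11 (SE) on the log2 scale with an edgeR adjusted p of 2.37e-07, and Wbp11 rose by 0.92 (adjusted p = 2.25e-06). Syf2 and Ccdc12, small proteins that join the spliceosome with the complex, were lower by log2 fold changes of -0.98 (adjusted p = 9.8e-06) and -0.82 (adjusted p = 1.29e-06). Genes of this list were thus called in both directions. From Naive to Ag, 6 were called higher and 3 lower, beside 24.2% and 22.5% of all genes, with a median of 0.37 beside 0.02. Aqr differed by -1.05 ± 0.14 (SE) on the log2 scale there (edgeR adjusted p = 4.09e-05), and like Prpf19 it was lower in every Ag library than in both other groups.

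Of 16 proteins of the U4/U6.U5 tri-snRNP, the particle on which the complex acts, 12 were called higher and 2 lower with costimulation (26.6% and 26.5% of all genes), with a median of 0.42. Snrnp200, the helicase that unwinds U4 from U6, was the largest rise, at 35.3 ± 3.84 CPM in Ag (SD, n = 5) and 186 ± 48.9 CPM with costimulation (SD, n = 5). It rose by 2.40 ± 0.15 (SE) on the log2 scale (edgeR adjusted p = 5.89e-08). It was lower in Ag than in Naive, by -1.74 ± 0.18 (SE) on that scale (edgeR adjusted p = 6.3e-06). Eftud2, the U5 GTPase, rose by 1.56 (adjusted p = 5.97e-08), whereas Ddx23 and Snrnp27 were lower by log2 fold changes of -0.75 (adjusted p = 0.0136) and -0.51 (adjusted p = 0.000552), calls that were lost with the transcript-length trend removed (-0.49 and -0.19). Between Naive and Ag, 4 of the 16 were called higher and 4 lower, close to the 24.2% and 22.5% of all genes, with a median of 0.09.

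Of 16 ATPases and step factors, which drive the spliceosome through and after catalysis, 10 were called higher and 1 lower with costimulation (26.6% and 26.5% of all genes), with a median of 0.53. Dhx38 and Dhx15 rose by 1.77 (adjusted p = 8.29e-08) and 1.40 (adjusted p = 1.66e-07), and Ccdc130 was lower by -0.94 (adjusted p = 3.62e-05). Between Naive and Ag, edgeR called 0 of the same 16 genes higher and 8 lower (24.2% and 22.5% of all genes), with a median of -0.30, Dhx38 at -0.70 and Dhx15 at -0.82. With the transcript-length trend removed, the call of Dhx38 was lost (-0.21), while that of Dhx15 was kept in all 21 alternative settings. Of the 5 exon junction complex proteins, 3 were called higher and 0 lower with costimulation (26.6% and 26.5% of all genes), with Casc3 at 1.05 (adjusted p = 8.09e-06) and Magohb at 0.77 (adjusted p = 0.000703) and a list median of 0.49. From Naive to Ag, 4 of the 5 were called higher and 1 lower (24.2% and 22.5% of all genes), with a median of 0.58, and without Naive library 2 only 3 of the 5 were called.

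Of 8 proteins that meet Prpf19 or Xab2 in DNA repair, 4 were called higher and 2 lower with costimulation (26.6% and 26.5% of all genes), with a median of 0.33. Rpa2 and Rpa1, subunits of RPA, rose by 0.98 (adjusted p = 3.8e-07) and 0.87 (adjusted p = 2.79e-06), and Xpa, a partner of Xab2 in excision repair, was lower by -1.17 (adjusted p = 2.47e-05). From Naive to Ag, 3 were called higher and 3 lower (24.2% and 22.5% of all genes), with a median of 0.09, and without Naive library 2 only 3 of the 8 were called. The proliferation markers given above were also highest in Ag+Costim, and their part in the rise of the RPA subunits was not tested.

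**Figure D5:**
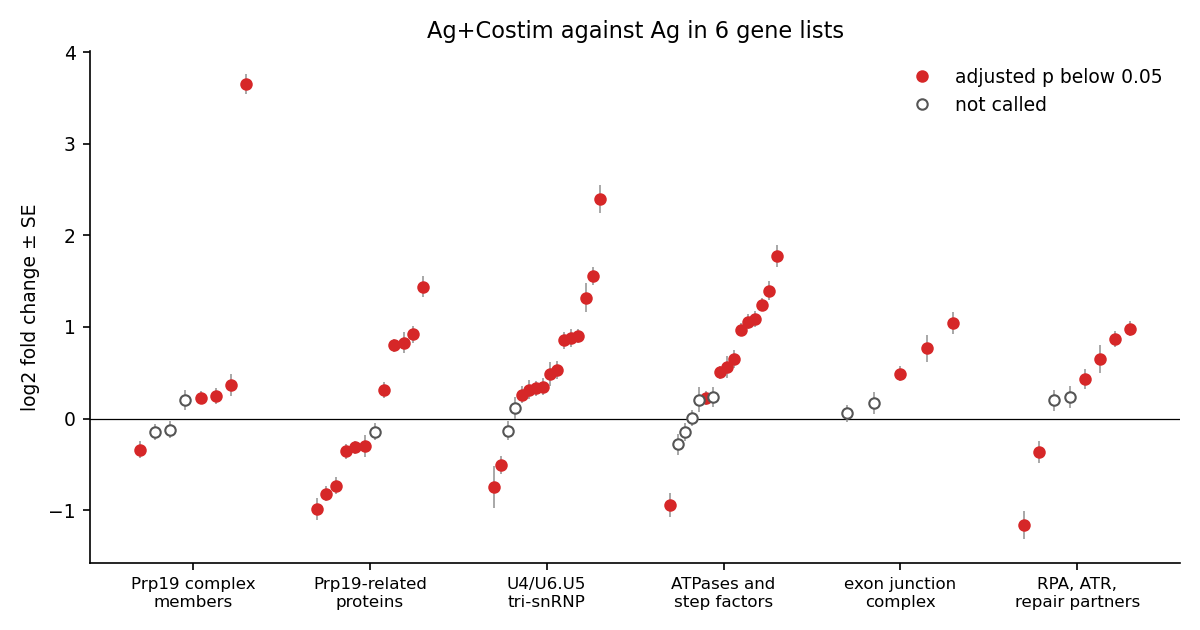
Log2 fold change of Ag+Costim over Ag for each gene of the Prp19 complex and of 5 lists of proteins that act with it, with each gene as a point with its SE bar, filled where edgeR called it. Prpf19 stands above all other points at 3.65, and the nearest is Snrnp200 of the tri-snRNP at 2.40.

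The genes whose levels followed Prpf19 most closely over the 12 libraries were Nup188, Kcnab2, Prmt1, Cbx2 and Nedd4, by the root mean square difference of log2 CPM after each gene's own mean was subtracted. This difference was 0.16 for Nup188, a scaffold nucleoporin of the nuclear pore, 0.25 for Kcnab2 and Prmt1, 0.27 for Cbx2 and 0.28 for Nedd4. Nup188 held 7.68 ± 1.36 CPM in Ag (SD, n = 5) and 86.9 ± 16.6 CPM with costimulation (SD, n = 5), against 39.2 CPM in Naive. Prmt1, the main arginine methyltransferase of RNA binding proteins, held 23.9 ± 5.82 CPM in Ag and 260 ± 40.0 CPM in Ag+Costim, against 132 CPM in Naive. The pattern of a low level in Ag between higher levels in Naive and Ag+Costim was therefore not particular to Prpf19. These genes were chosen for their pattern, so no test is given.

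The nearest protein-coding genes on either side of the 8 members were 16 genes, of which 11 passed the filter, 3 were called higher and 1 lower from Ag to Ag+Costim, beside 26.6% and 26.5% of all genes. Tmem109, which lies 13230 bases from Prpf19 and encodes a membrane protein, held 36.8 ± 6.61 CPM in Ag (SD, n = 5) and 158 ± 15.1 CPM with costimulation (SD, n = 5), against 62.5 CPM in Naive. It rose with costimulation by 2.10 ± 0.12 (SE) on the log2 scale (edgeR adjusted p = 2.19e-08) and differed by -0.77 ± 0.15 (SE) from Naive to Ag (edgeR adjusted p = 0.000776), the directions of Prpf19 at a smaller size. Zp1, on the other side of Prpf19 at 4728 bases, did not pass the filter.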

How the data were processed

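RNA-seq of OT-I CD8+ T cells was analysed in 12 libraries, 5 Ag, 5 Ag+Costim and 2 Naive, grouped by the treatment label of each sample. Libraries were made with SMART-Seq v4 and Nextera XT, which does not mark strand, and sequenced as single-end reads. Per the submitters' processing notes, HISAT2 2.1.0, SAMtools 1.9, StringTie 2.1.0, R 4.0.5 and DESeq2 1.30.1 were used with mm10. The count values per gene and per transcript were deposited by the authors as StringTie derives them from coverage, not normalized. The FPKM values per transcript were computed by the authors with StringTie and were summed per gene here. The Psi values, a fraction from 0 to 1 per node, come from Whippet, run by the authors, and are given once per group. The same deposited table holds the authors' Psi differences and probabilities, which were not used. Gene and transcript counts were matched to GENCODE vM21 by identifier (all 55536 annotated genes), and FPKM and Psi values by gene symbol. From the gene counts, 26345 unannotated loci with 0.0508% to 0.121% of the counts of a library were left out. Sequences were read from the GENCODE vM21 transcripts, with positions on mm10.

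Gene counts of all 12 libraries were fitted in edgeR 4.0.16 (R 4.3.3) with 1 term per group, after TMM scaling and filterByExpr. Groups were compared by its robust quasi-likelihood test, which is two-sided, adjusted by Benjamini-Hochberg over all 18817 genes tested and a threshold of 0.05. CPM values use the TMM library sizes. Replicates were compared before use, and all pairs differed by more than sampling noise. Transcript usage was tested with edgeR's diffSpliceDGE on transcripts with a mean count of at least 10 in genes with 2 or more of them. The alternatives were upper-quartile and DESeq2 scaling, DESeq2 1.42.0, no filter, limma 3.58.1 on log2(FPKM + 1) and log2(FPKM + 0.1), removal of a trend with transcript length, a replicate block and leaving out each library. The steps were tested on simulated data. For gene counts from Ag to Ag+Costim, 107 of 200 genes changed by 1 on the log2 scale were called (53.5%). In the same 17797 genes, 6 unchanged genes were called. A gene that was not called is therefore not shown to be unchanged.

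The members and all lists were chosen with earlier results of these data known, and members are given without p-values. Named genes of a list are its 2 largest rises and 2 largest falls from Ag to Ag+Costim that were called, exceeded a log2 CPM of 3 on average (prior count of 2) and had no overlap of the libraries. The 5 genes nearest to Prpf19, the nearest protein-coding gene on each side of each member, member transcripts of at least 10% of a gene in any group and member nodes with a Psi difference of at least 0.1 were also named by rule. Other transcripts and nodes, including Prpf19-203, Plrg1-201 and the nodes of Prpf19 and Bcas2, were named after their values were seen. Counts of 3 per library were used as a floor, and shares have Wilson 95% intervals, both of which cover counting error only.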

Additional observations from a re-analysis of the deposited data

Results flagged for a closer look

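Single libraries stood apart from the other 4 of their group in 7 of 46 sets of member values with 5 libraries each, by Dixon's criterion (gap over range above 0.71), which chance alone meets in about 1 in 20 sets. Transcript shares of the same gene depend on each other, so the sets are not independent and no excess over chance is read from this count. Ag+Costim library 4 was low for Cdc5l, at 122.3 CPM against 132.4 to 135.5 CPM in the others, and for Plrg1, at 109 CPM against 133.4 to 140.4 CPM. In the same library the coding Plrg1-204 held 82.04% of the gene against 99.63% to 99.78% in the others, while Plrg1-201 held 17.67% there and 0 elsewhere. Ag library 4, the shallowest library at 24006053 counts, was low for Ctnnbl1, at 117.3 CPM against 152.2 to 163.9 CPM, and its Bcas2-203 held 6.121% of the gene against 3.17% to 3.997%. Ag library 2 was high for Xab2-205, at 45.33% of the gene against 5.991% to 12.68%, and low for the coding Xab2-201, at 42.25% against 75.24% to 79.11%. The cause of these deviations was not tested.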

How the results depend on the processing

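The log2 fold changes of Prpf19, given as a description since its values helped choose the genes, kept their direction in all 21 alternatives of each comparison, at 3.45 to 3.74 for Ag+Costim against Ag, -2.64 to -2.38 for Ag against Naive and 0.95 to 1.34 for Ag+Costim against Naive. The other members were smaller and moved more with the processing. Of 5 members called from Ag to Ag+Costim, 3 were called by limma on log2(FPKM + 1), 3 on log2(FPKM + 0.1) and 2 with the transcript-length trend removed, where 7 in place of 11 Prp19-related proteins were called. The length trend also left 3 of 5 exon junction complex calls from Naive to Ag. Leaving out 1 library gave 3 to 8 members called from Naive to Ag, with 3 without either Naive library and 8 without Ag library 4, and as few as 3 from Naive to Ag+Costim without Naive library 2. It gave as few as 3 calls in the exon junction complex and 3 in the RPA list from Naive to Ag without Naive library 2. Directions reversed with the length trend removed for Bcas2 (0.10), Crnkl1 (-0.0519), Naa20 (0.14) and Blcap (0.0108) from Ag to Ag+Costim, and for Eftud2 (0.0709), Ccdc130 (-0.0396) and Supt3 (-0.18) from Naive to Ag. On log2(FPKM + 1) and log2(FPKM + 0.1) they reversed for Supt3 (-0.0511 and -0.0556) from Ag to Ag+Costim, for Cdc5l (-0.0577 and -0.0590), Ccdc130 (-0.0350 and -0.0376) and Supt3 (-0.15 and -0.17) from Naive to Ag, and for Ctnnbl1 (-0.00931 and -0.00939) from Naive to Ag+Costim. Upper-quartile scaling reversed Supt3 (-0.15) and Kdm4d (-0.0657) from Ag to Ag+Costim. With libraries left out in turn, Supt3 ranged from -0.0102 (without Ag+Costim library 1) to 0.1004 from Ag to Ag+Costim and from -0.00955 (without Ag library 1) to 0.0699 from Naive to Ag, and Ccdc130 from -0.00737 (without Naive library 2) to 0.150 from Naive to Ag. None of these reversed values was called in the main comparison. For transcript usage, limma called 6 member transcripts in place of 0, beside 2787 of all 34737. A mean count of at least 1 gave 1, Plrg1-201, beside 1524 of all 54959. At a Psi difference of at least 0.05, 1 member node passed in place of 0. The causes were not tested.

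Ag and Ag+Costim libraries of the same number correlated in their deviations from the group means at 0.0159 to 0.0951 only, so the numbers were not taken to pair them. With a replicate block, 5 members were called from Ag to Ag+Costim, 5 from Naive to Ag and 6 from Naive to Ag+Costim. For usage, 1 member transcript, Plrg1-201, was called in place of 0, beside 799 of all 34737. Depth limits the isoform shares of Prpf19 in Ag most, where they rest on 405 to 764 counts per library.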
